A study of Mus musculus with 12 samples.

Results

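The genes described here carry glucose into the cell and break it down to lactate: the transporters Slc2a1 and Slc2a3, the hexokinases Hk1 and Hk2, the phosphofructokinase Pfkl, the aldolase Aldoa, the phosphoglycerate kinase Pgk1, the enolase Eno1 and the lactate dehydrogenases Ldha and Ldhb. They were measured on 12 arrays of mouse blastocysts. All probe sets paired with exactly 1 of these 10 genes were taken, which gave 26 probe sets of 9 genes out of 45037 probe sets in all. No probe set was paired with Eno1 in the table used here, and 1 further probe set paired with several genes, Hk1 among them, was left out. With a mean signal of at least 100 as the minimum, 25 of the 26 probe sets were tested among 27808 probe sets of 13599 genes.

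Per the labels, 4 arrays carried RNA of blastocysts that had been cultured in Ca-free medium, 4 of blastocysts treated by 20 Ca2+ pulses, and 4 of normal blastocysts, called control. The title of the study places the altered Ca2+ pattern in the fertilised egg, so each comparison asks what differed at the blastocyst stage. The sources used here give neither strain nor embryo age, nor how many embryos went into an array, what made up a pulse, or how long Ca2+ was withheld. Whether the 4 arrays of a group came from 4 separate collections is likewise not stated, and p-values therefore describe only how these arrays scatter. The number of arrays limits the precision.

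Glycolysis turns glucose into pyruvate in a chain of cytosolic reactions and yields ATP without oxygen. Early cleavage embryos of the mouse live mainly on pyruvate and lactate, and glucose uptake and glycolysis rise as the blastocyst forms. Glucose enters through facilitative transporters of the SLC2A family, is trapped by hexokinase, is committed to glycolysis by phosphofructokinase, and ends as lactate where lactate dehydrogenase takes up the pyruvate.

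Of the blastocyst markers, 8 of 8 of trophectoderm, 6 of 6 of inner cell mass and epiblast, and 6 of 6 of primitive endoderm had a mean signal of at least 100. That minimum does not tell tissues apart, since 5 of 5 oviduct and 4 of 5 sperm and testis markers reached it too. The sums differed more. On control arrays the 3 blastocyst lists summed to 39710 to 42390, 17390 to 19980 and 14440 to 15410, and the oviduct list to 1180 to 1348. The sums of the 3 blastocyst lists in both treatments overlapped control, but single markers differed. In Ca-free medium against control Eomes (-0.70) and Gata4 (-0.69) were lower. Krt7 (0.41), Cdx2 (0.28) and Pou5f1 (0.20) were higher, each of these at a limma adjusted p under 0.05. Every array had been brought to the same trimmed mean, yet the deposited median signal was 38.29 to 39.2 on Ca-free arrays, 47.35 to 53.65 on arrays of 20 pulses and 49.37 to 53.05 on control arrays. Over all tested probe sets the median log2 change was -0.18 for Ca-free medium against control and -0.03 for 20 pulses against control, and changes of single probe sets are to be read relative to it. The hybridization controls, RNAs added to every sample before hybridization, were higher on Ca-free arrays than on control arrays by 0.29 on the log2 scale, with no overlap (two-sided exact permutation p = 0.0286; 70 arrangements of 4 against 4 arrays allow no smaller p). The array control probe sets at the 3' and the 5' end of Gapdh, itself a glycolytic enzyme, gave a ratio of 2.89 to 5.05 on Ca-free arrays and 5.76 to 8.90 on control arrays (log2 difference -0.88, exact p = 0.0286). For Actb the ratios were 1.69 to 1.88 and 1.59 to 2.69 (-0.20, exact p = 0.429). Markers of cells other than the embryo summed to less than the blastocyst lists, and some of their sums moved with the groups. Of 4 lists, 2 separated Ca-free medium from control, but most of their markers were dim. Among all tested probe sets with mean signals from 100 to 322.5, divided into 5 sets by signal, every set fell in Ca-free medium. The median log2 changes against control lay between -0.39 and -0.34. The part of that general shift in the 2 separations was not tested. The 7 cumulus and granulosa markers, of which 2 reached 100, summed to 618.2 to 678.3 on Ca-free arrays, 763.7 to 1048 on arrays of 20 pulses and 1020 to 1111 on control arrays. The 5 oviduct markers summed to 607.5 to 792.2, 926.5 to 1188 and 1180 to 1348 in the same order. The erythroid markers, 3 of 5 measured, summed to 130.7 to 186, 239.1 to 269.2 and 167.2 to 281.1, and the 5 sperm and testis markers to 611.8 to 740.9, 689.2 to 852.8 and 721.6 to 897.5, so that Ca-free medium overlapped control in both. The part of these differences in the results below was not tested. RNA was measured from whole embryos, so fewer cells of a type and less RNA per cell cannot be told apart.

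Blastocysts from Ca-free medium had more signal than control for probe sets of Slc2a1, Hk2, Aldoa and Pgk1, and less for probe sets of Hk1, Pfkl and Ldhb. Of the 25 probe sets 10 were called higher and 4 lower (limma, Benjamini-Hochberg adjusted p under 0.05 over all 27808), while 10.6% of all tested probe sets were called higher and 29.7% lower. The median log2 change was 0.23 over the 25 probe sets and -0.18 over all tested. After 20 pulses 1 probe set, of Slc2a1, was called higher than control and 0 lower, at 1.1% and 0.374% of all tested, and the median change was -0.04 against -0.03 over all. At an unadjusted p under 0.05 these numbers were 8 and 2, at 8.15% and 7.64% of all tested. Both comparisons use the same 4 control arrays.

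**Figure D1:**
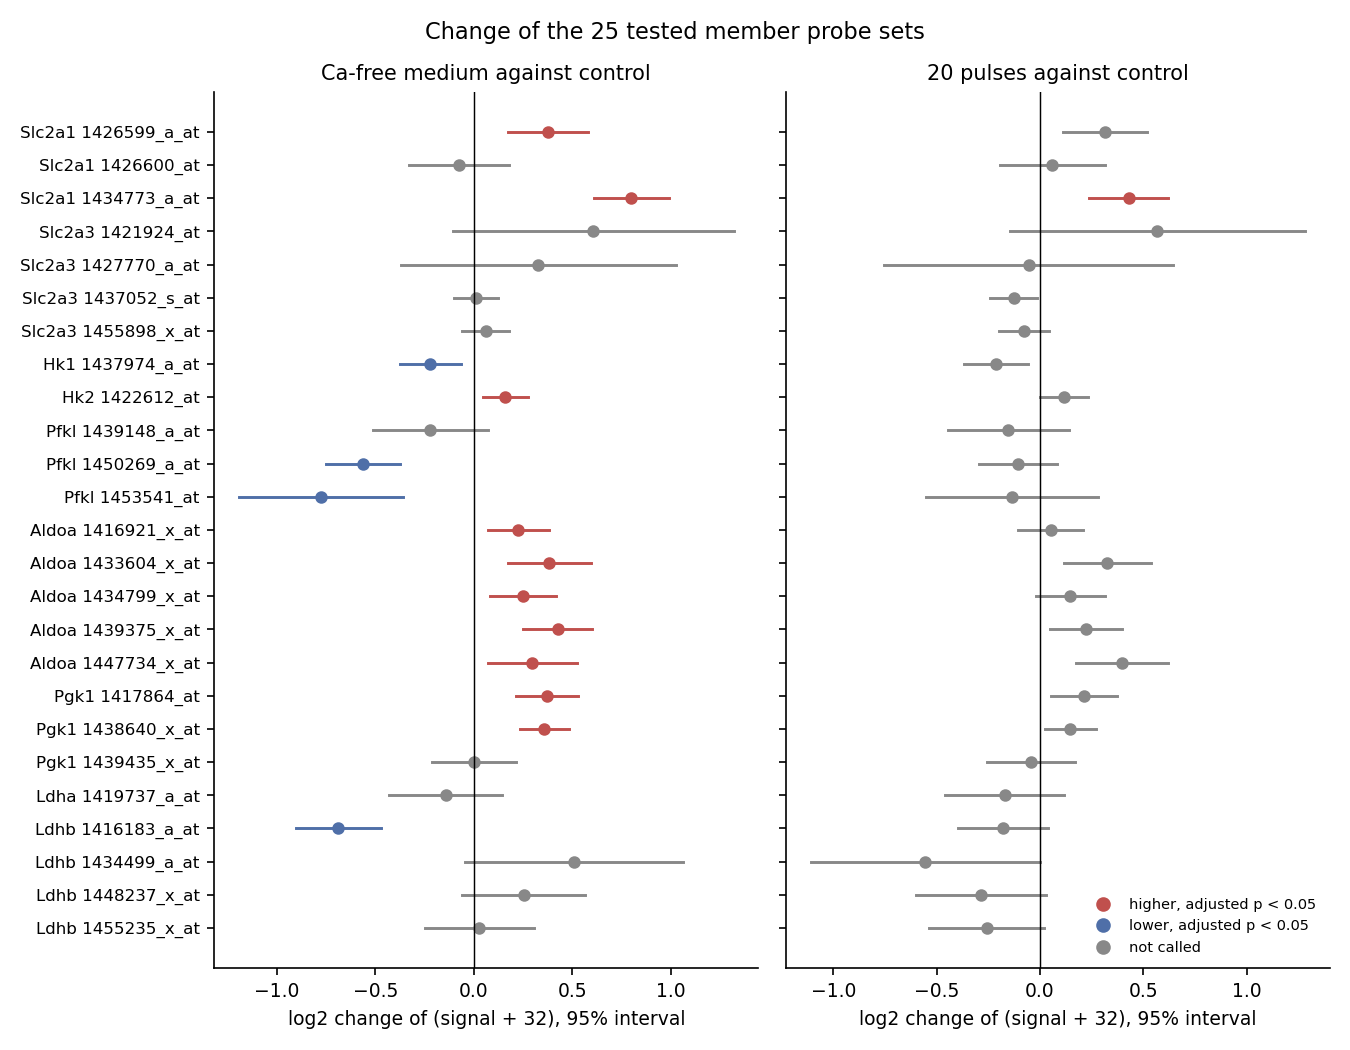
Log2 change of (signal + 32) of the 25 tested probe sets with the 95% interval from limma, for Ca-free medium against control on the left and 20 pulses against control on the right; each row is a probe set, in pathway order. Points are red where called higher, blue where called lower and grey where not called: 10, 4 and 11 for Ca-free medium, and 1, 0 and 24 for 20 pulses.

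The plot of changes with their intervals shows that, in Ca-free medium against control, all 5 Aldoa probe sets lay above 0 and all 3 of Pfkl below it, whereas the probe sets of Slc2a1 and of Ldhb lay on both sides.

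The promoters of 3 genes are shown: Slc2a1 and Ldhb because each has a probe set that passed in Ca-free medium under all alternatives run, and Pgk1 because it is a textbook target of the hypoxia-inducible factors with 2 called probe sets. They are the 250 bases before the annotated start, from RefSeq on GRCm38.p6, written 5' to 3' on the gene's strand. Capitals mark each ACGTG and its reverse complement CACGT, 1 form of the core of the element these factors bind. Other forms of this core were not marked or counted, so a window with 0 matches may still hold such a form.
Slc2a1, chr4:119108495-119108744, plus strand: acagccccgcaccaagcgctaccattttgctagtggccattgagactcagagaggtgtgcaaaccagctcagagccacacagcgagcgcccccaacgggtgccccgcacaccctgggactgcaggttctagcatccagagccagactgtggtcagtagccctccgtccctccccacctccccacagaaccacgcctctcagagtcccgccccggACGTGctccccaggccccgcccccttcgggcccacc
Pgk1, chrX:106186850-106187099, plus strand: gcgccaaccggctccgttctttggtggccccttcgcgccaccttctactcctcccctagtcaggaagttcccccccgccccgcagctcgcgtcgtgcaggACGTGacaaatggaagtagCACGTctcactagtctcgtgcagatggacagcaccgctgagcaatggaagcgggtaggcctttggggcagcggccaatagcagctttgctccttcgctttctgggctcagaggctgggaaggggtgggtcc
Ldhb, chr6:142507958-142508207, minus strand: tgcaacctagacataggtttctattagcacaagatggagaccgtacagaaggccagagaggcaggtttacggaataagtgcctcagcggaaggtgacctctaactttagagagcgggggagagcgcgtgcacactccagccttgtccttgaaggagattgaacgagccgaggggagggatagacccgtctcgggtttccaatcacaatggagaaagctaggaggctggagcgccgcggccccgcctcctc
The Slc2a1 window holds 1 match, 36 bases before the start, and the Pgk1 window holds 2, at 150 and 131 bases, whereas the Ldhb window holds 0. The 15 annotated start windows came from 9 of the genes, with Eno1 among them and none for Slc2a3. ACGTG on either strand was found in 6 of the 15 windows, and in 5 of these 9 genes: Slc2a1, Hk2, Aldoa, Pgk1 and Ldha. Of these windows 2 of Aldoa overlap and share the same match. A window of Ldha, not shown, held the most, 5 matches, and Ldha was not called in Ca-free medium against control (-0.14). The shown windows were picked by their results and do not stand for the others. Of all 32851 such windows 16.6% hold ACGTG on either strand, and the share of all genes was not counted. A match describes the letters of the window and nothing more.

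Slc2a1, the transporter GLUT1, takes up glucose at a basal rate in most cells. Its probe set 1434773_a_at read 3902, 4356, 4509 and 3819 on the Ca-free arrays, 2710, 2967, 3510 and 3663 after 20 pulses, and 2421, 2386, 2391 and 2250 in control. The 3 groups did not overlap, with Ca-free medium highest and control lowest. In Ca-free medium the signal rose 1.74-fold over control (log2 change 0.80 ± 0.0889 SE, limma adjusted p = 1.28e-04), and it passed as higher under all 22 alternatives. Against 20 pulses the change was 0.37 ± 0.0889 (adjusted p = 0.0075), and after 20 pulses against control it was 0.43 ± 0.0889 (adjusted p = 0.03).

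The other 2 probe sets of Slc2a1 differed from it and from each other. Probe set 1426599_a_at read 1310, 1484, 1544 and 1106 in Ca-free medium, 1209, 1372, 1238 and 1351 after 20 pulses, and 999.3, 1040, 1023 and 1070 in control. Both treatments lay above every control array and overlapped each other (log2 change 0.38 ± 0.095 SE, limma adjusted p = 0.00704, for Ca-free medium, and 0.31, adjusted p = 0.117, for 20 pulses). Its call in Ca-free medium ended with Ca-free arrays 1 and 4 only (0.21) and with scaling to the hybridization controls (0.10). Probe set 1426600_at read 534.1 ± 82.56 in Ca-free medium, 588.6 ± 67.35 after 20 pulses and 563 ± 63.07 in control (SD, n = 4 each), with all groups overlapping.

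The Slc2a1 call after 20 pulses was easily lost, although its change stayed between 0.36 and 0.51 with 1 array left out. It ended when any 1 of pulses arrays 2 (0.46), 3 (0.38) and 4 (0.36) or controls 2 (0.43), 3 (0.43) and 4 (0.41) was left out, and the number of called probe sets was then 0. Without control 1 it was 2. The call also ended with controls 1 and 2 only (0.40, limma adjusted p = 0.149) and with controls 3 and 4 only (0.45, adjusted p = 0.0544).

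**Figure D2:**
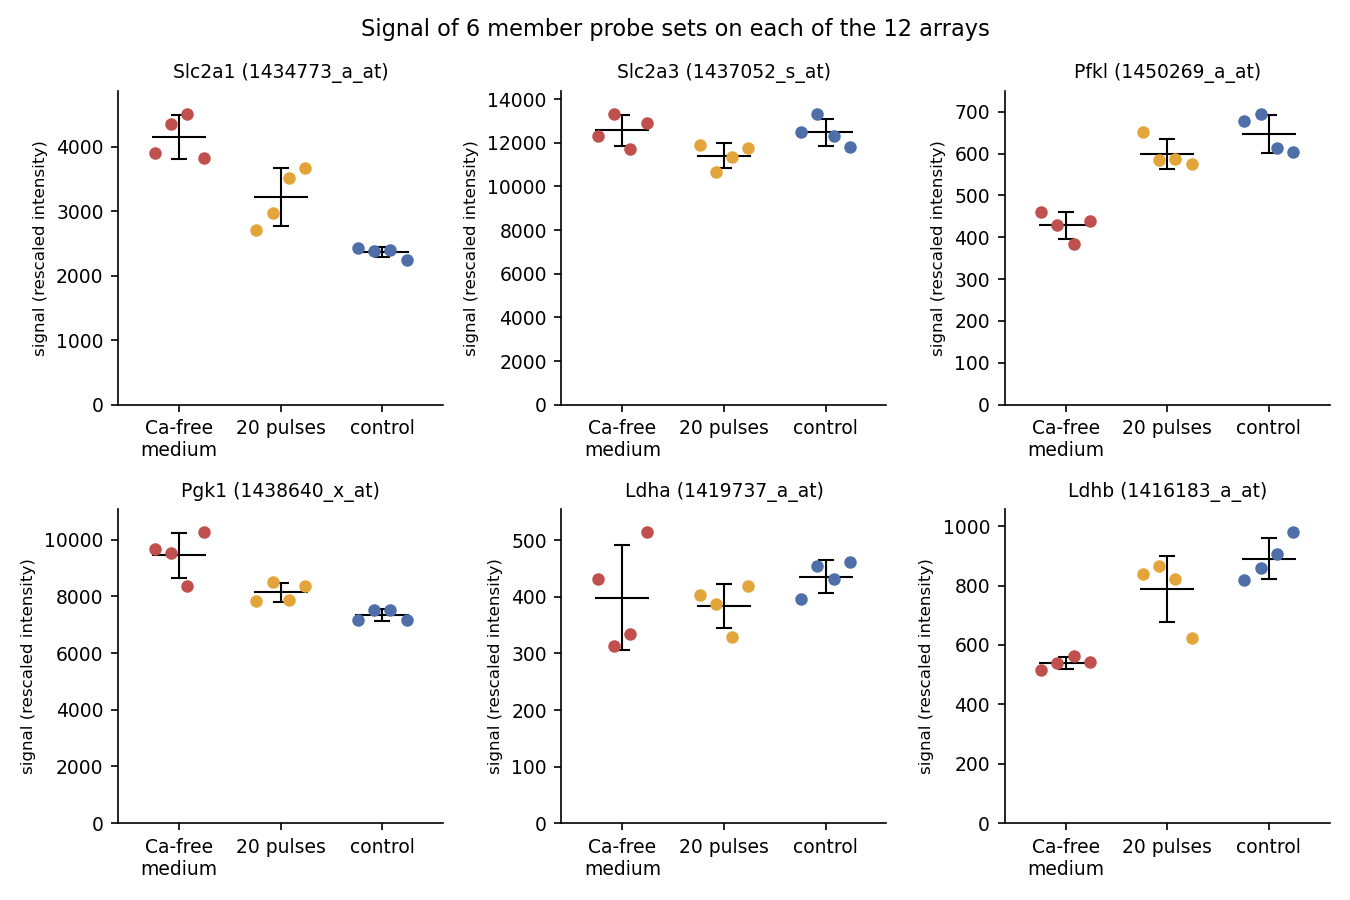
Signal (rescaled intensity, linear axis from 0) of 6 probe sets on each of the 12 arrays, Ca-free medium left, 20 pulses in the middle, control right; points are arrays 1 to 4 from left to right, and the black marks are the mean and SD of 4 arrays. Slc2a1 stands in 3 separate ranges, Pfkl and Ldhb are lower in Ca-free medium than on every other array, and Slc2a3 and Ldha overlap.

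Slc2a3, the transporter GLUT3, has a high affinity for glucose and lies on the outer face of the mouse trophectoderm. Probe set 1437052_s_at read 12300, 13330, 11720 and 12910 in Ca-free medium, 11890, 10660, 11340 and 11770 after 20 pulses, and 12480, 13320, 12310 and 11810 in control. The groups overlapped, and the log2 change of Ca-free medium against control was 0.01 with a 95% interval of -0.10 to 0.12 (limma adjusted p = 0.894). Probe set 1455898_x_at read 9705 ± 539.6, 8822 ± 488.6 and 9304 ± 511.8 in Ca-free medium, after 20 pulses and in control (SD, n = 4 each), also with overlap. The other 2 probe sets were dim and uneven within groups: 1421924_at read 116.4, 183.7, 157.2 and 96.66 in Ca-free medium, 116.9, 147.9, 112 and 149.8 after 20 pulses, and 150.4, 159.8, 30.82 and 34.03 in control. None of the 4 passed the test in any of the 3 comparisons. With controls 3 and 4 only, 1421924_at passed as higher in Ca-free medium (1.38), as it did without control 2 (0.87) and under median scaling (0.93).

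Setting both transporters against each other on the same array removes any factor common to an array. The level of such a difference has no meaning, because 2 probe sets differ in brightness, so only its change between groups is compared. That change still carries any shift that goes with brightness, and it depends on the probe sets chosen. For the brightest probe set of each gene, log2 Slc2a3 minus log2 Slc2a1 was 1.65, 1.61, 1.37 and 1.75 in Ca-free medium, 2.12, 1.83, 1.68 and 1.68 after 20 pulses, and 2.35, 2.46, 2.35 and 2.38 in control. All arrays of both treatments lay below all control arrays. The difference against control was -0.79 for Ca-free medium and -0.56 for 20 pulses, each at the smallest p possible (exact two-sided permutation p = 0.0286, adjusted p = 0.0514 over the 9 such tests). Taken as the mean over all tested probe sets of each gene, the differences were -0.12 and -0.19, and that between Ca-free medium and 20 pulses was 0.07 in place of -0.23.

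The hexokinases phosphorylate glucose on entry: Hk1 is the widely expressed isoform and Hk2 the one that responds to insulin and to hypoxia in many tissues. Hk1 probe set 1437974_a_at read 1148, 1167, 1227 and 1078 in Ca-free medium, 1228, 1226, 1105 and 1095 after 20 pulses, and 1388, 1398, 1334 and 1284 in control. Every treated array lay below every control array. Hk1 fell by 0.22 on the log2 scale in Ca-free medium (± 0.0725 SE, limma adjusted p = 0.0256), and the change after 20 pulses was -0.21 (adjusted p = 0.161). The other Hk1 probe set, 1420901_a_at, read 6.648 to 18.73 over the 12 arrays and was too dim to be tested.

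Hk2 probe set 1422612_at read 4721, 5301, 5519 and 4945 in Ca-free medium, 4891, 4833, 5040 and 5058 after 20 pulses, and 4659, 4507, 4528 and 4590 in control. Again the treated arrays all lay on 1 side, here above control. Hk2 rose by 0.16 in Ca-free medium (± 0.0542 SE, limma adjusted p = 0.029), and the change after 20 pulses was 0.12 (adjusted p = 0.315). Both calls were weak. That of Hk1 ended without Ca-free array 4 (-0.19), control 1 (-0.21) or control 2 (-0.20), and that of Hk2 without Ca-free array 2 (0.14) or 3 (0.12) or control 2 (0.15) or 3 (0.16).

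Within arrays, log2 Hk2 minus log2 Hk1 was 2.01, 2.15, 2.14 and 2.16 in Ca-free medium, 1.97, 1.95, 2.16 and 2.18 after 20 pulses, and 1.72, 1.67, 1.74 and 1.81 in control. Both treatments stood above control without overlap and overlapped each other. The differences against control were 0.38 for Ca-free medium and 0.33 for 20 pulses (exact two-sided permutation p = 0.0286 each, adjusted p = 0.0514), and 0.05 between the treatments (exact p = 0.4).

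**Figure D3:**
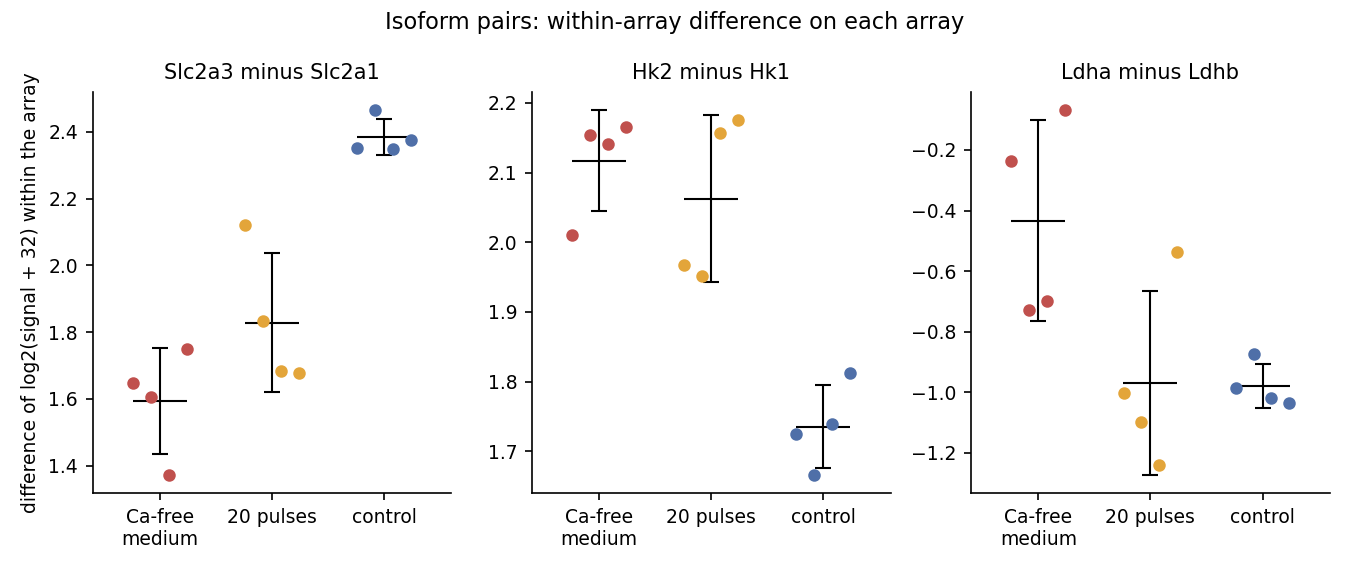
Difference of log2(signal + 32) between the brightest probe sets of 2 isoforms on the same array, for Slc2a3 minus Slc2a1, Hk2 minus Hk1 and Ldha minus Ldhb; Ca-free medium left, 20 pulses in the middle, control right, points are arrays 1 to 4 from left to right, and black marks are the mean and SD of 4 arrays. Both treatments stand apart from control in the first 2 panels, and in the third the arrays of 20 pulses overlap control.

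Pfkl is the liver type subunit of phosphofructokinase, the enzyme that commits sugar to glycolysis. Probe set 1450269_a_at read 461.4, 430.1, 384.4 and 438.5 in Ca-free medium, 652.8, 584.2, 587.2 and 574.7 after 20 pulses, and 677.3, 695.2, 614.3 and 604.1 in control. The Ca-free arrays lay below all others, and those of 20 pulses overlapped control. The signal fell by 0.56 on the log2 scale against control (± 0.0884 SE, limma adjusted p = 5.74e-04) and by 0.46 against 20 pulses (adjusted p = 0.00288).

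A dimmer Pfkl probe set, 1453541_at, read 83.89, 158.9, 76.03 and 163.1 in Ca-free medium, 213.1, 243, 156.4 and 187 after 20 pulses, and 224.7, 233.9, 204.4 and 217.8 in control. All Ca-free arrays lay below all controls, and Ca-free arrays 2 and 4 lay above pulses array 3. It fell by 0.78 against control (± 0.195 SE, limma adjusted p = 0.0068) and by 0.64 against 20 pulses (adjusted p = 0.0219). Neither call held under quantile normalization (-0.45 against control and -0.35 against 20 pulses) or median scaling (-0.44 and -0.34). The call against control also ended with controls 3 and 4 only (-0.73), and that against 20 pulses without Ca-free array 1 (-0.53) or 3 (-0.50) or pulses array 1 (-0.61) or 2 (-0.56). The remaining Pfkl probe set, 1439148_a_at, read 442 ± 87.89, 459.8 ± 43.47 and 517.7 ± 80.85 in Ca-free medium, after 20 pulses and in control (SD, n = 4 each) and was not called. With Ca-free arrays 2 and 3 only it passed as lower against control (-0.45).

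Aldoa, the aldolase of muscle and most embryonic tissue, splits the doubly phosphorylated sugar. All 5 of its probe sets are of the kind (x_at) that may bind other transcripts as well. The same limit applies to Slc2a3 1437052_s_at and 1455898_x_at, Pgk1 1438640_x_at and 1439435_x_at, and Ldhb 1448237_x_at and 1455235_x_at. It applies also to Arnt 1419996_s_at, the probe set of Arnt given below. All 5 Aldoa probe sets rose in Ca-free medium against control, by 0.23 to 0.43 on the log2 scale. The largest change was that of 1439375_x_at, which read 4477, 3833, 3681 and 4528 in Ca-free medium, 3377, 3655, 3304 and 3974 after 20 pulses, and 3147, 3316, 2896 and 2879 in control. The Ca-free arrays were above every control array, and the arrays of 20 pulses overlapped both (log2 change 0.43 ± 0.0824 SE, limma adjusted p = 0.00167). After 20 pulses the 5 changes against control ran from 0.05 to 0.40 with adjusted p from 0.0755 to 0.78, and 0 were called.

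Several Aldoa calls were lost when 1 array was left out, while the changes themselves stayed above 0. That of 1416921_x_at ended without Ca-free array 1 (0.19) or 4 (0.18) or control 3 (0.21) or 4 (0.19), and that of 1434799_x_at without Ca-free array 1 (0.21) or 4 (0.20). The call of 1447734_x_at ended without Ca-free array 1 (0.23) or 3 (0.24), control 2 (0.29), 3 (0.30) or 4 (0.29), and with the replicate number as a block (limma adjusted p = 0.0554). Against controls 1 and 2 only, 1439375_x_at alone of the 5 passed, and 5 of the 25 glycolysis probe sets were called higher.

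Pgk1 makes the first ATP of the pathway, and its gene lies on the X chromosome. Probe set 1438640_x_at read 9661, 9519, 8358 and 10260 in Ca-free medium, 7851, 8497, 7868 and 8351 after 20 pulses, and 7183, 7521, 7524 and 7156 in control. Both treatments lay above every control array, and Ca-free array 3 lay within the range of 20 pulses. Pgk1 rose by 0.36 in Ca-free medium against control (± 0.0582 SE, limma adjusted p = 6.8e-04) and by 0.21 against 20 pulses (adjusted p = 0.0144), while the change after 20 pulses was 0.15 (adjusted p = 0.225).

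Probe set 1417864_at of Pgk1 read 2677, 2340, 2149 and 2647 in Ca-free medium, 2147, 2130, 2146 and 2323 after 20 pulses, and 1855, 1876, 1964 and 1831 in control. It rose by 0.37 in Ca-free medium against control (± 0.074 SE, limma adjusted p = 0.00193), again with both treatments above all controls. The remaining probe set, 1439435_x_at, read 964.7 ± 35.9, 936.3 ± 66.68 and 973.1 ± 158.5 in Ca-free medium, after 20 pulses and in control (SD, n = 4 each) and was not called (-2e-04 against control).

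Ldha and Ldhb encode the subunits of lactate dehydrogenase, of which Ldha is known for the forms that favour lactate and Ldhb for those of heart. Ldha probe set 1419737_a_at read 431.7, 313, 334.6 and 514.2 in Ca-free medium, 403.3, 386.8, 329.8 and 418.6 after 20 pulses, and 396.5, 453.8, 431.4 and 461.2 in control. The groups overlapped, and the widest spread was that of the Ca-free arrays (log2 change -0.14 with a 95% interval of -0.43 to 0.14, limma adjusted p = 0.41). With Ca-free arrays 2 and 3 only it passed as lower (-0.39).

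Ldhb probe set 1416183_a_at read 514.6, 539.7, 562.9 and 541 in Ca-free medium, 839.3, 864.4, 822.3 and 622.2 after 20 pulses, and 817.2, 858.8, 906.9 and 979.5 in control. All Ca-free arrays lay below all others, and the arrays of 20 pulses overlapped control. The signal fell by 0.69 on the log2 scale against control (± 0.102 SE, limma adjusted p = 4.4e-04), under all 22 alternatives, and by 0.51 against 20 pulses (adjusted p = 0.0034).

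None of the other 3 probe sets of Ldhb was called lower. Probe set 1434499_a_at read 165.6, 144.6, 128.3 and 194.8 in Ca-free medium, 22.69, 60.53, 65.59 and 103.1 after 20 pulses, and 70.85, 81.24, 119.6 and 143.4 in control. It was called higher in Ca-free medium against 20 pulses (log2 change 1.06 ± 0.261 SE, limma adjusted p = 0.00843) but not against control (0.51, adjusted p = 0.129). Probe set 1448237_x_at likewise was higher against 20 pulses (0.54, adjusted p = 0.0136) and not called against control (0.25, adjusted p = 0.176), at signals of 360.3 ± 51.95, 239.8 ± 50.79 and 296.7 ± 40.11 in Ca-free medium, after 20 pulses and in control (SD, n = 4 each). Against control both passed as higher under quantile normalization (0.82 and 0.49) and median scaling (0.84 and 0.63). Both calls against 20 pulses ended with Ca-free arrays 2 and 3 only (0.90 and 0.41). Probe set 1455235_x_at was not called (0.03 against control). The probe sets of Ldhb thus differ in direction, and whether their places along the transcript bear on it was not tested.

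Log2 Ldha minus log2 Ldhb, for the brightest probe set of each, was -0.24, -0.73, -0.70 and -0.07 in Ca-free medium, -1.0, -1.10, -1.24 and -0.54 after 20 pulses, and -0.99, -0.87, -1.02 and -1.04 in control. The Ca-free arrays lay above all control arrays, and pulses array 4 lay among the Ca-free arrays. The difference was 0.55 for Ca-free medium against control (exact two-sided permutation p = 0.0286, adjusted p = 0.0514) and 0.01 for 20 pulses against control (exact p = 0.943). With the mean over all tested probe sets of each gene it turned to -0.17 for Ca-free medium.

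Between the treatments, blastocysts from Ca-free medium had 4 probe sets called higher than after 20 pulses, namely 1 of Slc2a1, 1 of Pgk1 and 2 of Ldhb, and 3 called lower, namely 2 of Pfkl and 1 of Ldhb (limma). Among all tested probe sets 9.22% were called higher and 23.4% lower. The median change was 0.06 over the 25 and -0.17 over all. Without Ca-free array 3 the number called higher was 8. The Pgk1 call, 0.21, ended with Ca-free arrays 2 and 3 only (0.13), and that of Slc2a1, 0.37, with Ca-free arrays 1 and 4 only (0.27). Quantile normalization ended both, at 0.0265 for Pgk1 and 0.23 for Slc2a1.

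How the arrays were scaled set much of the count for Ca-free medium against control. Under quantile normalization 7 of the 25 were called higher and 3 lower, where 9.79% and 9.98% of all tested probe sets were. It ended the calls of Hk2 (0.018) and of 4 of the 5 Aldoa probe sets (0.11 to 0.23), and 2 probe sets of Ldhb passed instead. Under median scaling 17 and 1 were, against 36.8% and 5.53%, and with scaling to the hybridization controls 1 and 9 were, against 1.74% and 58.6%. The median change over all tested probe sets was -0.02, 0.19 and -0.43 under these scalings. Slc2a1 1434773_a_at, at 0.65, 1.21 and 0.52, passed as higher and Ldhb 1416183_a_at, at -0.63, -0.30 and -0.96, as lower under each of them. The Aldoa, Pgk1 and Hk2 calls all ended with scaling to the hybridization controls, where Hk2 was at -0.12 and 2 of the 5 Aldoa probe sets turned negative, and Hk1 turned to 0.18 under median scaling. Pfkl 1450269_a_at passed as lower except under median scaling (-0.17). The bright Slc2a3 probe set 1437052_s_at, at 0.01 with the trimmed mean, was called higher under median scaling (0.42) and lower with scaling to the hybridization controls (-0.28), where Ldha was called lower as well (-0.41).

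**Figure D4:**
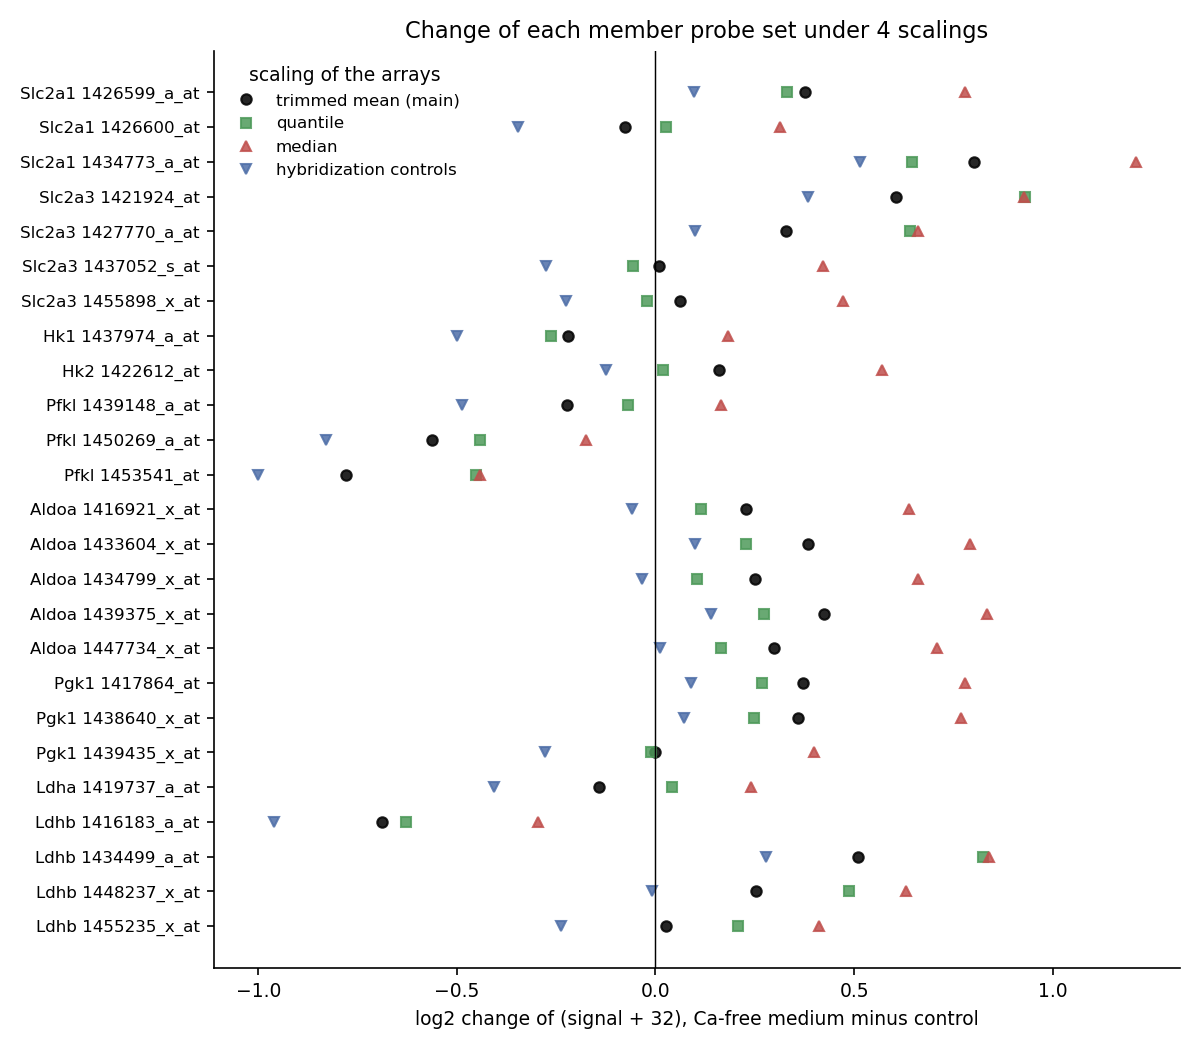
Log2 change of (signal + 32), Ca-free medium minus control, of the 25 tested probe sets under 4 scalings of the arrays: trimmed mean (black circles), quantile (green squares), median (red triangles) and hybridization controls (blue triangles pointing down). Median scaling lies to the right and scaling to the hybridization controls to the left of the trimmed mean for every probe set shown, and Slc2a1 1434773_a_at stays above 0 and Ldhb 1416183_a_at below 0 under all 4.

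Against 20 pulses the counts followed the scaling as well. Quantile normalization gave 2 probe sets higher and 2 lower in Ca-free medium (5.05% and 4.98% of all tested), median scaling 17 and 0 (31.5% and 3.56%), and scaling to the hybridization controls 1 and 19 (0.212% and 79.1%). With the last, Slc2a1 1434773_a_at was at -0.0699 and Pgk1 1438640_x_at was called lower (-0.23).

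The change in Ca-free medium also went with brightness over the whole array. With the tested probe sets divided into 10 equal sets by signal, the brightest set had mean signals from 2742 to 19360 and a median log2 change against control of 0.12, and in it 35.9% were called higher and 4.28% lower. It held 10 of the 25 glycolysis probe sets, of which 8 were called higher, with a median of 0.27. In the next set the median was 0.10, 27.5% were called higher and 10.6% lower, and of 3 glycolysis probe sets 2 were called higher and 1 lower. In the 5 dimmest sets the median lay between -0.39 and -0.34. Slc2a1 1434773_a_at, Pfkl 1450269_a_at and Ldhb 1416183_a_at stood farthest from the median of probe sets of like signal among those of mean signal over 500. Some dimmer ones stood as far out or farther. Slc2a3 1421924_at (0.61) and 1427770_a_at (0.33) and Ldhb 1434499_a_at (0.51) lay in a set with a median of -0.36. Ldhb 1448237_x_at (0.25) lay in a set at -0.34. These were above their medians and not called against control. Pfkl 1453541_at (-0.78) lay below its median of -0.38.

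**Figure D5:**
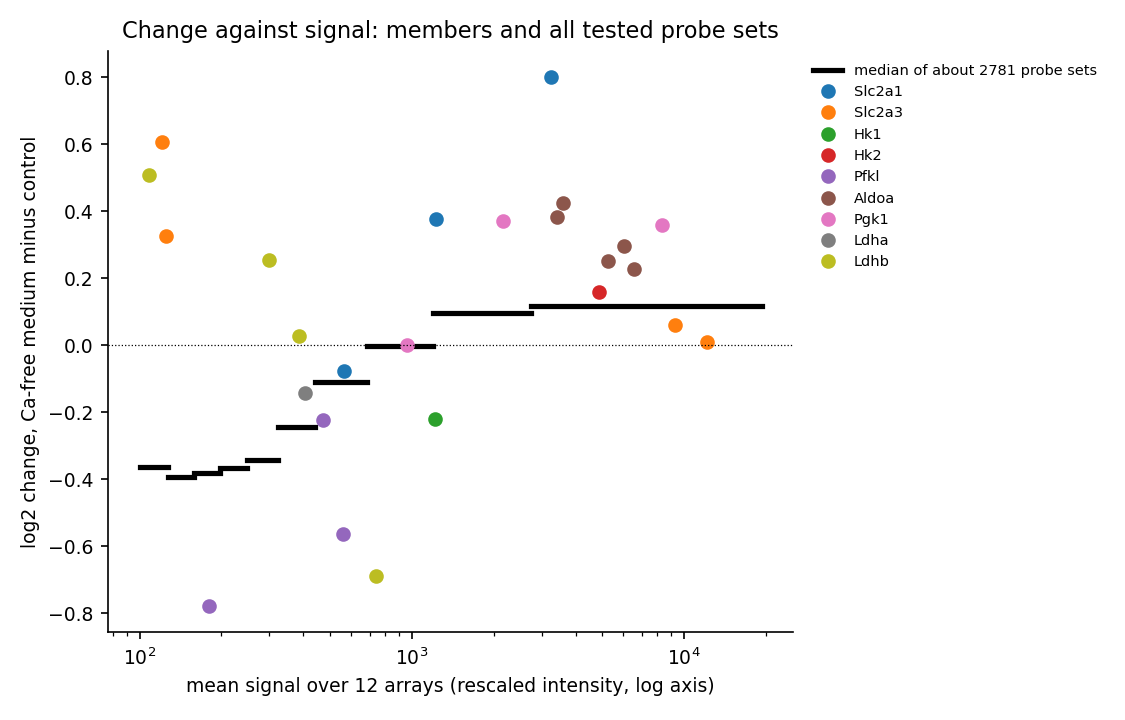
Log2 change of Ca-free medium minus control (vertical axis) against mean signal over the 12 arrays (log axis) for the 25 tested probe sets, coloured by gene; black bars are the median change in 10 equal sets of all 27808 tested probe sets by signal. The bars run from -0.36 at the dim end to 0.12 at the bright end, the 5 Aldoa probe sets and 2 of Pgk1 lie above them, and both bright Slc2a3 probe sets lie below.

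The arrays of 1 group were not alike. On Ca-free arrays 1 and 4, 11 of the 25 probe sets lay above both arrays 2 and 3 (24.9% of all tested did), and 6 lay below (26%). The higher ones were 4 of Aldoa, 2 of Pgk1, 2 of Pfkl, 2 of Ldhb and Ldha, and the lower ones were 2 of Slc2a1, 2 of Slc2a3, Hk1 and Hk2. Controls 1 and 2 lay above controls 3 and 4 in 9 probe sets (27.7% of all tested) and below in 4 (21.8%). The labels name no batch that would go with either division. The control probe set at the 5' end of Actb did go with that of the controls. It read 7692 and 8372 on controls 1 and 2, and 5037 and 4835 on controls 3 and 4. At the 3' end it read 12200 and 13950, and 13540 and 12750. The part of this in the calls that depend on pairs of controls was not tested.

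Other genes of glucose use were counted from a list of 82 symbols, 75 of them measured and 67 tested with 114 probe sets. The listed symbol Gpi1 was matched by a synonym to Pigq, which is not a gene of glucose use. Probe sets of Pigq are therefore included in these counts, here and below, and in the group of transport, glycolysis and lactate export. In Ca-free medium against control 21 of the 114 were called higher and 31 lower, with a median of -0.11, where 10.6% of all tested probe sets were higher and 29.7% lower. The group of transport, glycolysis and lactate export held 4 higher and 17 lower of 45, pyruvate entry to mitochondria 4 and 2 of 16, the pentose phosphate pathway 2 and 0 of 11, glycogen 5 and 3 of 14, and regulators 6 and 9 of 28. Without control 1 the number higher was 13. After 20 pulses 2 of the 114 were higher than control and 0 lower (limma), where 1.1% and 0.374% of all tested were; at an unadjusted p under 0.05 they were 8 and 14, against the 8.15% and 7.64% of all tested. The number higher was 0 to 2 with 1 array left out, and it was 0 when any 1 of pulses arrays 2, 3 and 4 or controls 3 and 4 was left out.

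Gapdh, the dehydrogenase in the middle of glycolysis, was read from the array's own control probe sets at 3 places of its transcript. At the 3' end it read 7324, 6524, 6017 and 7527 in Ca-free medium, 6237, 6198, 5864 and 6698 after 20 pulses, and 5574, 5773, 6285 and 5985 in control, with overlap. At the 5' end it read 1450, 2104, 2080 and 1591 in Ca-free medium, 1080, 955.3, 1028 and 884.1 after 20 pulses, and 887.6, 1002, 824.9 and 672.6 in control. There the Ca-free arrays lay above all others, whereas in the middle of the transcript the signal was 2187 ± 171.6, 2349 ± 84.51 and 2094 ± 121.2 in Ca-free medium, after 20 pulses and in control (SD, n = 4 each).

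Ugp2, which makes the UDP-glucose that glycogen is built from, passed in both treatments. Probe set 1426461_at read 978.1 ± 58.67 in Ca-free medium, 746.2 ± 46.02 after 20 pulses and 553.5 ± 41.35 in control (SD, n = 4 each), without overlap between either treatment and control. Its log2 change was 0.79 for Ca-free medium (limma adjusted p = 1.04e-04, held under all 22 alternatives) and 0.41 for 20 pulses (adjusted p = 0.0282). The call for 20 pulses ended when any 1 of pulses arrays 2, 3 and 4 or controls 2, 3 and 4 was left out (0.36 to 0.44) and with the replicate number as a block (adjusted p = 0.0536). Of the 4 other Ugp2 probe sets 3 were called higher in Ca-free medium too.

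The other large rises against control in Ca-free medium were those of Gyg, the glycogen primer (0.91), the transcription factor Foxk1 (0.79), Pfkfb2, which makes the activator of phosphofructokinase (0.78), and Hif1a, the oxygen-regulated subunit of the hypoxia-inducible factor (0.64, limma adjusted p = 0.0127). All 4 ended with scaling to the hybridization controls, and further probe sets of Foxk1 (-0.46) and Pfkfb2 (-0.55) were called lower. Hif1a probe set 1448183_a_at also rose after 20 pulses (0.80, adjusted p = 0.0429), a call that ended when any 1 of pulses arrays 1, 2, 3 and 4 or controls 3 and 4 was left out (0.60 to 0.87). Gyg lost its call without Ca-free array 1 or 4 or control 1 (0.64 to 0.80), Foxk1 without control 1 or 2 (0.64 each), and Pfkfb2 without Ca-free array 1, 2 or 3 or control 2 or 4 (0.55 to 0.78).

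The largest falls against control were in Slc2a9, a urate and sugar transporter (-1.29), Ldhd, the D-lactate dehydrogenase (-1.11), the lactate exporter Slc16a3 (-0.97), the fructose transporter Slc2a5 (-0.94), and Arnt, the partner of Hif1a (-0.89). All had a mean signal between 50.81 and 150 in Ca-free medium and between 139 and 314.8 in control, in the range of signal where the median change was -0.39 to -0.34. Slc2a5 averaged 150 ± 24.8 on the Ca-free arrays, against 314.8 ± 26.66 on the control arrays (SD, n = 4 each; limma adjusted p = 5.67e-04). Slc2a9 and Slc2a5 passed under all 21 alternatives run for them, and Ldhd, Slc16a3 and Arnt were lost under quantile normalization.

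Against 20 pulses the largest rises in Ca-free medium were in Pdha1, a subunit of pyruvate dehydrogenase (0.57), the hypoxia-inducible factor Epas1 (0.56), Taldo1 of the pentose phosphate pathway (0.47), the mitochondrial pyruvate carrier Mpc1 (0.38) and Ugp2 (0.38). Pdha1 read 4119 ± 508.4 in Ca-free medium, against 2769 ± 433 after 20 pulses (SD, n = 4 each; limma adjusted p = 0.00198). All 5 calls ended with scaling to the hybridization controls, where Mpc1 turned to -0.0615 and Ugp2 to -0.0535. The largest falls were in Arnt (-1.05), both tested probe sets of Slc2a9 (-0.81 and -0.75), Slc16a3 (-0.80) and Foxk1 (-0.64). All 5 of these ended under quantile normalization, and those of Slc2a9 and Slc16a3 also without single arrays of either group. Of the 114 probe sets 19 were called higher and 17 lower, where 9.22% and 23.4% of all tested were.

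The genes whose log2 signal followed the members most closely over the 12 arrays are given as a description, since the arrays share the groups and the scaling. Slc2a1 1434773_a_at went most closely with Hipk1 (Pearson r = 0.964) and Eif5b (0.963), though within groups r was 0.724 and 0.633. Slc2a3 1437052_s_at went with Tomm20 (0.974) and Eif4g2 (0.972), also within groups (0.955 and 0.954). For Hk1 they were Zfp84 (0.936) and Zscan21 (0.931), for Hk2 Fam107b (0.961) and Pdcd10 (0.948), and for Ldha 3110040N11Rik (0.924) and 2610318N02Rik (0.904).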

How the data were processed

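Each of the 12 arrays, an Affymetrix oligonucleotide array of mouse transcripts, was hybridised with biotin-labelled cRNA from total RNA of blastocysts. The deposited values are intensities, 1 per probe set and array, made by the authors with MAS5, per the submitters' processing notes (version not given in the sources used here). Every deposited array had a trimmed mean of 150. Here the intensities were scaled to a trimmed mean of 500 (2% trimmed at each end, a factor of 3.33), 32 was added before log2, and 27808 probe sets with a mean of at least 100 were tested with limma 3.58.1 in R 4.3.3, with all 3 groups in 1 fit, an intensity trend and Benjamini-Hochberg adjustment at 0.05. A log2 change on this scale understates the change of dim probe sets. MAS5 subtracts mismatch probes, so dim signals are the least certain.

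Probe sets were named through the platform annotation, and 34754 of the 34958 paired with 1 gene matched RefSeq (GRCm38.p6) by gene identifier, which also gave the promoters. Another 932 probe sets were paired with several genes and 9211 with none, and these were not named. The members and gene lists were chosen with earlier results of these data known. Genes named besides the members are the 5 largest called changes of the other glucose genes in each direction of each comparison, the array controls of Gapdh and Actb, and the 2 probe sets most correlated with the brightest probe set of each of Slc2a1, Slc2a3, Hk1, Hk2 and Ldha.

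Isoform differences were tested by exact permutation of the arrays, two-sided. Same-numbered samples did not deviate together (mean correlation 0.0156, -0.058 to 0.101, against -0.00521 for other numbers), so the number was used as a block only as an alternative. The other alternatives were quantile, median and hybridization control scaling, pseudocounts of 1 and 100, no minimum, a minimum of 300, no trend, the 8 arrays compared only, pairs of arrays of a group, and each array left out. The fit was tested on simulated data: with 27808 probe sets and the arrays of Ca-free medium and control, it recovered 47% of 100 changes of 1.5-fold and 78% of 100 changes of 2-fold, with 8 false calls. In the data 10.6% of the probe sets were called higher and 29.7% lower in that comparison. With so many more changes the adjustment is less strict, so the simulated shares do not describe it.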

Additional observations from a re-analysis of the deposited data

Results flagged for a closer look

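In 4 cases 1 array stood far from the other 3 of its group by Dixon's gap ratio, out of 87 groups of 4 examined, where chance gives about 1 in 20. Ca-free array 2 read 14.38 for the dim Hk1 probe set 1420901_a_at, and the others read 10.11 to 10.73, all below the minimum for testing. Pulses array 1 read 652.8 for Pfkl 1450269_a_at, and the others read 574.7 to 587.2, so that array is the only one of its group within the control range of 604.1 to 695.2. Pulses array 4 read 2323 for Pgk1 1417864_at, and the others read 2130 to 2147, with all 4 above control. Log2 Hk2 minus log2 Hk1 was 2.01 on Ca-free array 1 and 2.14 to 2.16 on the other Ca-free arrays, all above control.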

How the results depend on the processing

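Slc2a1 1434773_a_at and Ugp2 1426461_at kept their higher calls and Ldhb 1416183_a_at its lower call in Ca-free medium against control under all 22 alternatives. The causes of the shifts below were not tested, and the dim probe sets, near background, were the least certain. Shares of all tested probe sets were counted for the main fit and the 3 scalings only. Counts under the other settings, here and above, therefore cannot be set against the whole array. For Ca-free medium against control the 10 higher calls of the glycolysis probe sets became 17 under median scaling, 1 under hybridization control scaling, 6 with no trend and 5 with controls 1 and 2 only (7 to 10 with 1 array left out), and the 4 lower ones 1, 9 and, with controls 3 and 4 only, 2 (3 to 4). Against 20 pulses the 4 higher calls became 2 under quantile normalization, 17 under median and 1 under hybridization control scaling, 2 with a minimum of 300, 7 with Ca-free arrays 1 and 4 only and 1 with arrays 2 and 3 only (4 to 8), and the 3 lower ones 0 under median and 19 under hybridization control scaling (2 to 3). For 20 pulses against control the 1 higher call became 2 under quantile normalization, with the 8 arrays only and with controls 3 and 4 only, 8 under hybridization control scaling, and 0 under median scaling, with no minimum, no trend or controls 1 and 2 only (0 to 2). Hybridization control scaling turned Aldoa 1416921_x_at to -0.0592, 1434799_x_at to -0.0343, Hk2 to -0.12 and Slc2a3 1437052_s_at and 1455898_x_at to -0.28 and -0.23 (called lower) against control, and Pgk1 1438640_x_at to -0.23, Slc2a1 1434773_a_at to -0.0699, Mpc1 to -0.0615 and Ugp2 to -0.0535 against 20 pulses. Median scaling turned Hk1 1437974_a_at to 0.18 and Pgk1 1439435_x_at to 0.40 against control. Under quantile normalization 6 isoform differences passed (adjusted exact p = 0.0429): Slc2a3 minus Slc2a1 at -0.70 for Ca-free medium and -0.41 for 20 pulses against control and -0.30 between them, Hk2 minus Hk1 at 0.28 and 0.40 against control, and Ldha minus Ldhb at 0.67 for Ca-free medium. Each was at the smallest exact p possible, so the adjusted p turns only on how many tests reached it. Some of these differences were smaller than with the main scaling and some larger. The 114 probe sets of the other glucose list include those of Pigq, as said above. Of them, the 21 higher calls against control became 13, 53 and 2 under quantile, median and hybridization control scaling, 13 with controls 3 and 4 only and 11 with Ca-free arrays 2 and 3 only (13 to 21). The 31 lower ones became 18, 7 and 64 under the same scalings, 17 with a minimum of 300 and 19 with controls 3 and 4 only. Against 20 pulses their 19 higher calls became 8, 43 and 0, and 9 with Ca-free arrays 2 and 3 only, and their 17 lower ones 4, 1 and 85, and 11 with a minimum of 300. After 20 pulses their 2 higher calls became 5 under hybridization control scaling, 0 with controls 1 and 2 only, and 1 with a pseudocount of 1, no minimum, a minimum of 300, no trend, the replicate block or the 8 arrays only (0 to 2), and their 0 lower calls became 1 with controls 1 and 2 only. With the replicate block, where samples share only a number, the glycolysis calls were 9 higher and 4 lower for Ca-free medium against control, 1 and 0 for 20 pulses against control, and 4 and 3 between them.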
